A study of Homo sapiens with 2 samples.

Results

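The genes described here are 53 neighbours on the short arm of chromosome 7, in bands 7p21 to 7p14, out of 19607 genes in the expression table. They run from ETV1, which starts at position 13891228, to PLEKHA8, which ends at 30130483 (GRCh38, GENCODE release 29), a stretch of 16239 kb. They were chosen on the differences between the same libraries that are described below, by map position, and the HOXA genes that lie among them were left out. Their direction and their number of changed genes are therefore a description and carry no test.

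The cells were CWR22rv1, a human CaP cell line grown in RPMI medium with serum. The control library came from cells labelled wild type. The Akt1/2 DKO library came from cells that had received CRISPR/Cas9 plasmids against Akt1 and Akt2 together with a puromycin resistance plasmid, after which single clones were isolated. The labels do not say which clone was sequenced, so the loss of Akt1/2 and the isolation of a clone cannot be told apart. With 1 library per condition, no difference below has a replicate check, and fewer cells of a kind cannot be told apart from less RNA per cell.

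Sequencing depth was 9970815 reads for control and 10718634 for Akt1/2 DKO. AKT1 had 2645 reads in control and 591 in Akt1/2 DKO, and AKT2 had 2362 and 667, so both targeted genes were lower in the library labelled knockout. All 8 prostate luminal markers were read in both libraries, among them KRT8 with 6408 and 12815 reads. KLK3, which encodes PSA, had 184 and 29. Markers of other cell types were scarce: the 5 fibroblast markers summed to 138 and 153 reads (COL3A1 74 and 9, COL1A1 55 and 106, LUM 5 and 35), the 3 leukocyte markers to 51 and 69, nearly all of them CD68, and the 3 endothelial markers to 1 and 2. The part of such cells in the results was not tested.

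The stretch holds genes of unlike function that are neighbours by position alone. ETV1 is an ETS transcription factor that is activated by gene fusions in some prostate cancers. AGR2 and its neighbour AGR3 encode protein disulphide isomerases of the endoplasmic reticulum of secretory epithelia, and AHR encodes the receptor for dioxin-like ligands. The HOXA cluster, which sets position along the body axis, lies within the stretch between SKAP2 and HIBADH.

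Most of the genes that could be measured had more reads in Akt1/2 DKO cells than in control cells. Of the 53 genes, 40 reached 10 reads over both libraries and are called measured here. Of these, 19 were at least 1.5-fold higher in Akt1/2 DKO after scaling of the reads by edgeR's TMM method, while 15.9% of all 13318 measured genes were. Another 3 were at least 1.5-fold lower, against 15.0% of all measured genes. The remaining 18 were within 1.5-fold, and 30.9% of all measured genes were outside it in one direction or the other. These shares are printed for scale, since the genes were picked from this same contrast.

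The median log2 ratio of Akt1/2 DKO to control over the 40 genes was 0.52, and that of all measured genes was 0.01. It was also 0.52 with any library under 3 reads set to 3 reads. Ratios lay above 0 in 32 of the 40 and below 0 in 8. The 95% exact interval, which covers counting error only, lay above 0 for 28 genes, below 0 for 5 and across 0 for 7. A gene that has reads in 1 library alone can pass the limit of 10 reads only through that library: 7 of the 40 had under 10 reads in control, and 2 had under 10 in Akt1/2 DKO.

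Summed over all 53 genes, control held 15750 reads and Akt1/2 DKO 25384, 1.45-fold higher after scaling. The 5 most abundant, CYCS, CBX3, BZW2, TAX1BP1 and HIBADH, held 57.7% of the control reads, so this sum mostly reflects them.

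**Figure D1:**
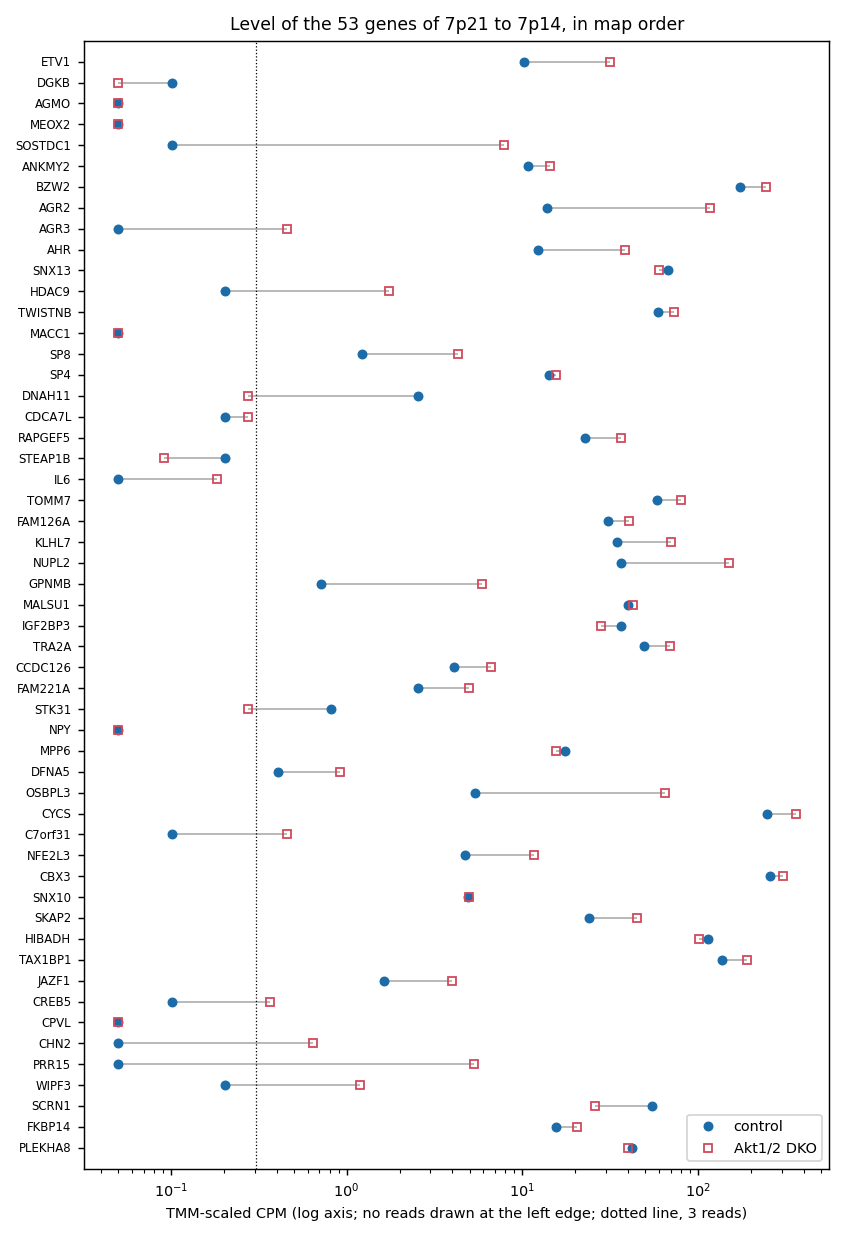
Scaled CPM (log axis) of each of the 53 genes in control (filled circles) and Akt1/2 DKO (open squares), in map order from ETV1 to PLEKHA8. A gene with no reads is drawn at the left edge and the dotted line stands for 3 reads in control. Squares lie right of circles for 32 of the 40 measured genes.

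Among the 13 genes for transcription factors and chromatin proteins, 9 were measured, 6 were at least 1.5-fold higher and 0 were lower. The shares over all measured genes, 15.9% higher and 15.0% lower, stand beside this and each group below, and nothing is read from the counts, since the genes were picked from this contrast. ETV1 (ENSG00000006468) had 100 reads in control and 341 in Akt1/2 DKO, 3.08-fold higher (95% interval 2.45 to 3.88). AHR had 120 and 416 reads, 3.13-fold higher (2.55 to 3.86). NFE2L3, a relative of the antioxidant regulator NRF2, had 46 and 126, 2.47-fold higher (1.75 to 3.54). The intervals of these 3 genes all lay above 1.5-fold.

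The other 3 higher genes of this group were read less often. SP8, a zinc finger factor of limb outgrowth, had 12 reads in control and 47 in Akt1/2 DKO, 3.53-fold higher (1.84 to 7.32). JAZF1, a zinc finger protein known from gene fusions in endometrial stromal tumours, had 16 and 43, 2.42-fold higher (1.34 to 4.61). HDAC9, a class IIa histone deacetylase, had 2 and 19, a ratio of 8.57 with an interval from 2.07 to 75.9. For HDAC9 the direction was outside counting error, but its size was hardly fixed.

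The other 3 measured genes of the group were within 1.5-fold. CBX3, which encodes a heterochromatin protein of the HP1 family, had 2510 reads in control and 3298 in Akt1/2 DKO, a log2 ratio of 0.25 (0.17 to 0.32). TWISTNB, now called POLR1F and part of RNA polymerase I, had 580 and 796 reads, a log2 ratio of 0.31 (0.15 to 0.46). SP4 had 139 and 168 reads, and its interval (log2 -0.21 to 0.46) included no difference. MACC1 and MEOX2 had 0 reads in both libraries, CDCA7L had 2 and 3, and CREB5 had 1 and 4, all under the limit for a comparison.

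All 5 genes for RNA and translation were measured, and 1 of them passed 1.5-fold. NUPL2 (ENSG00000136243), now called NUP42, encodes a nucleoporin that takes part in mRNA export. It had 355 reads in control and 1622 in Akt1/2 DKO, 4.12-fold higher with a narrow interval of 3.67 to 4.64. BZW2, a regulator of translation start site choice, went from 1700 to 2657 reads (log2 0.50, 0.41 to 0.58), and TRA2A, a splicing factor, from 485 to 753 (log2 0.49, 0.32 to 0.65). Both were thus higher by about as much as CYCS and TOMM7 below.

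MALSU1, which helps assemble the mitochondrial ribosome, and IGF2BP3, an oncofetal mRNA-binding protein, overlap by 1521 bases on opposite strands and were given fractional reads. MALSU1 had 390.09 in control and 463.68 in Akt1/2 DKO, and IGF2BP3 had 354.91 and 306.32. Their sums were whole numbers, 745 and 770, so reads that matched both genes had been divided between them. The log2 ratio of the sums was -0.10, while that of MALSU1 was 0.10 and that of IGF2BP3 was -0.36 (-0.59 to -0.14). How the shared reads were divided can therefore shift one gene against the other.

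Of 8 genes for secreted and endoplasmic reticulum proteins, 4 were measured and 3 were at least 1.5-fold higher. AGR2 (ENSG00000106541) had 136 reads in control and 1277 in Akt1/2 DKO, 8.47-fold higher (7.09 to 10.2). GPNMB, a membrane glycoprotein of lysosomes and melanosomes, had 7 and 64, 8.25-fold higher (3.78 to 21.3). SOSTDC1, a secreted antagonist of BMP and Wnt signals, had 1 and 85, a ratio of 76.7 whose interval ran from 13.4 to 3063. These were the 3 largest ratios of this group, and only that of AGR2 rested on over 100 reads in the control library.

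FKBP14, a prolyl isomerase that folds procollagen, had 153 and 223 reads (log2 0.39, 0.09 to 0.70). The other 4 had too few reads. AGR3, the neighbour of AGR2, had 0 in control and 5 in Akt1/2 DKO. The cytokine IL6 had 0 and 2, and the neuropeptide NPY and the carboxypeptidase CPVL had 0 in both.

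None of the 3 measured genes for mitochondria and metabolism, out of 5, passed 1.5-fold, yet 2 had intervals above 0. CYCS, which encodes cytochrome c, was the gene with the most reads among all 53, with 2411 in control and 3891 in Akt1/2 DKO (log2 0.54, 0.47 to 0.62). TOMM7, a subunit of the mitochondrial import pore, had 573 and 868 (log2 0.45, 0.30 to 0.61). HIBADH, an enzyme of valine breakdown, had 1122 and 1096 (log2 -0.18, -0.30 to -0.06). CYCS, CBX3 and TOMM7 have processed pseudogenes elsewhere in the genome that can share their reads. AGMO had 0 reads in both libraries, and STEAP1B, which resembles STEAP1, had 2 and 1.

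The 16 genes for signalling, cytoskeleton and trafficking were the most mixed: 14 were measured, 5 were at least 1.5-fold higher and 3 at least 1.5-fold lower. OSBPL3 (ENSG00000070882), an oxysterol-binding protein relative at contacts between the endoplasmic reticulum and other membranes, had 53 reads in control and 705 in Akt1/2 DKO. This was 12.0-fold higher (9.07 to 16.2), the largest ratio among the 53 genes with at least 100 reads. KLHL7, a substrate adaptor of a CUL3 ubiquitin ligase, went from 340 to 760 (2.02-fold, 1.77 to 2.30). SKAP2, an adaptor of Src family kinases, went from 235 to 486 (1.87-fold, 1.59 to 2.19).

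RAPGEF5, an exchange factor for Rap GTPases, went from 222 to 398 reads (1.62-fold, 1.37 to 1.91). WIPF3, which binds WASP proteins, had only 2 and 13 (5.86, 1.33 to 53.5). The lower intervals of RAPGEF5 and WIPF3 fell under 1.5-fold. TAX1BP1, an autophagy receptor, had 1346 and 2050 reads (log2 0.46, 0.36 to 0.56), and FAM126A, now called HYCC1 and part of a complex that makes a plasma membrane phosphoinositide, had 300 and 441 (log2 0.41, 0.19 to 0.62).

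SCRN1 (ENSG00000136193), which encodes secernin, was the one gene of the 53 with at least 100 reads that was at least 1.5-fold lower. It had 535 reads in control and 281 in Akt1/2 DKO, 2.11-fold lower (1.82 to 2.45). DNAH11, an axonemal dynein heavy chain of motile cilia, had 25 and 3, a ratio of 9.24 with an interval from 2.82 to 47.8. STK31 had 8 and 3 reads, and its interval (log2 -4.11 to 0.49) included no difference. Of the lower genes, SCRN1 and DNAH11 thus lay outside counting error.

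SNX13, a sorting nexin, had 660 and 650 reads (log2 -0.17, -0.33 to -0.01). MPP6, now called PALS2, had 171 and 169, PLEKHA8 had 410 and 433, and SNX10 had 48 and 54, all with intervals that included 0. DGKB, a diacylglycerol kinase, had 1 and 0 reads, and CHN2, a Rac GTPase-activating protein, had 0 and 7.

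DFNA5, now called gasdermin E, is the pore-forming protein of a lytic form of cell death. It had 4 reads in control and 10 in Akt1/2 DKO, a ratio of 2.26 whose interval (log2 -0.62 to 3.30) included no difference. Of the 5 genes without an assigned role, PRR15 had 0 and 58 reads, at least 17.4-fold higher with 3 reads as the floor, and the lower limit of its interval was 13.7-fold. CCDC126 had 40 and 72 (1.62-fold, 1.09 to 2.45), FAM221A 25 and 54 (1.95-fold, 1.19 to 3.27) and ANKMY2 106 and 157 (1.34-fold, 1.04 to 1.73). C7orf31 had 1 and 5.

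**Figure D2:**
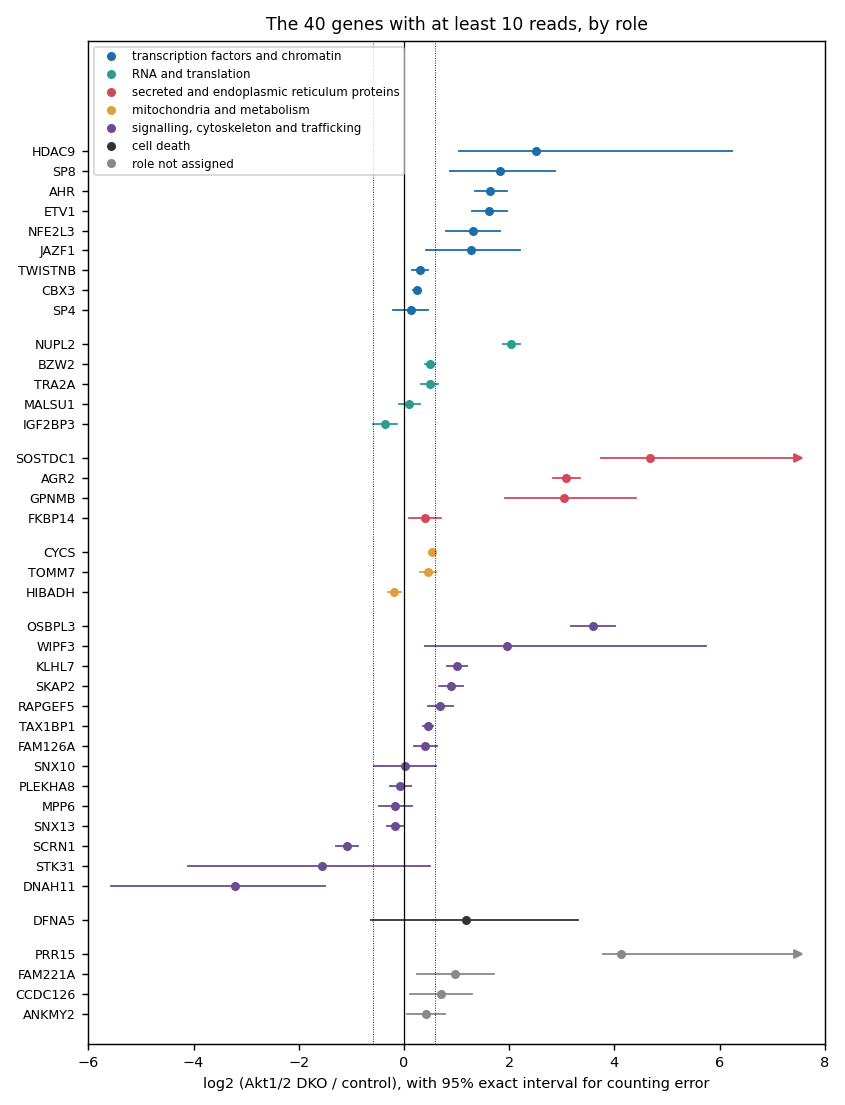
Log2 ratio of Akt1/2 DKO to control for the 40 measured genes, grouped by role, with the 95% exact interval for counting error. Dotted lines mark 1.5-fold, arrows mark intervals that go past the axis, and a library under 3 reads was set to 3 for the point. The 6 genes right of 1.5-fold at the top are transcription factors or chromatin proteins, and the 3 genes left of it at the bottom of the purple group are SCRN1, STK31 and DNAH11.

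The median ratio was largest among the measured genes with the fewest reads. The 21 genes with 500 or more reads over both libraries had a median log2 ratio of 0.46, and 16 of them lay above 0. Among all 7510 genes of that depth the median was -0.01, with 6.96% at least 1.5-fold higher and 9.99% lower, while 7 and 1 of the 21 were. The 8 genes with 100 to under 500 reads had a median of 0.40, against 0.04 over 3446 genes. The 11 genes with 10 to 99 reads had a median of 1.78, with 9 higher and 2 lower, but genes that few reads support pass 1.5-fold more easily: of all 2362 such genes, 37.3% were higher and 29.2% lower.

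Along the map the median ratio was highest at the end nearest the tip of the arm. Of the 13 genes that start between 13 and 20 megabases, 9 were measured, with a median log2 ratio of 1.62. Of the 23 that start between 20 and 25 megabases, 18 were measured, with a median of 0.59. Of the 17 between 25 and 31 megabases, 13 were measured, with a median of 0.46. Genes above and below 0 stood next to each other in each of these blocks, such as AHR (log2 1.64) and SNX13 (-0.17), FAM221A (0.96) and STK31 (-1.56), or FKBP14 (0.39) and SCRN1 (-1.08).

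The genes just outside the ends of the stretch were mostly higher as well. On the side of the tip, SCIN, an actin-severing protein, had 37 reads in control and 822 in Akt1/2 DKO (log2 4.32). VWDE (log2 1.20), TMEM106B (1.17) and PHF14 (0.33) came next. On the side of the centromere, MTURN had 189 and 341 reads (log2 0.70), followed by ZNRF2 (2.40), NOD1 (0.77), GGCT (0.22) and GARS (0.31). All 10 measured flanking genes, 5 at each end, were above 0, and 6 of them were at least 1.5-fold higher.

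The table holds 14 further genes between ETV1 and PLEKHA8 that are neither among the 53 nor HOXA genes. Of these, 7 were measured, with 4 higher, 1 lower and a median log2 ratio of 0.76. TWIST1, a transcription factor of mesenchymal cells, had 7 reads in control and 122 in Akt1/2 DKO, 15.7-fold higher (7.40 to 39.9). TSPAN13 had 291 and 545 (1.69-fold), ISPD 12 and 31 (2.33-fold), and RP11-507K12.1, which overlaps AHR on the same strand, 35 and 143. ITGB8, an integrin subunit, was lower with 37 and 13, and HNRNPA2B1 (log2 0.22) and EVX1 (0.41) were within 1.5-fold.

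Of 12 HOXA genes, 11 were measured, 9 were at least 1.5-fold higher and 1 was lower, with a median log2 ratio of 3.40. HOXA10 had 10 reads in control and 588 in Akt1/2 DKO, and HOXA13 had 30 and 357. The genes that border the cluster did not share that size: SKAP2 had a log2 ratio of 0.90, EVX1 of 0.41 and HIBADH of -0.18.

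**Figure D3:**
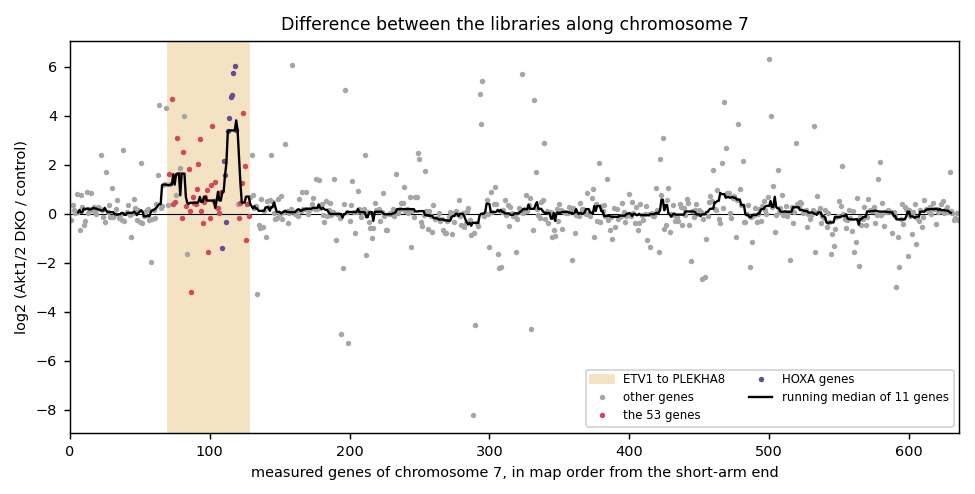
Log2 ratio of Akt1/2 DKO to control for each measured gene of chromosome 7 in map order, with the running median of 11 genes as a line and the stretch from ETV1 to PLEKHA8 shaded. Within the shaded stretch the line stays between 0.25 and 3.81, with its peak over the HOXA genes.

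A running median of 11 measured genes was above 0 at each of the 58 genes of the stretch. It lay between 0.25 and 3.81, with a median of 0.70, and was at or above 1.5-fold at 34 genes (58.6%). Windows that hold HOXA genes are among these 34. With the HOXA genes left out, its median in the stretch was 0.54, which is below 1.5-fold, and the share at or above 1.5-fold was not computed. The stretch was chosen on these same values, so its share is a description beside that of other parts of the genome. Elsewhere on chromosome 7 it lay between -0.49 and 1.19, with a median of 0.07, and its highest value was at VWDE, just outside ETV1. Windows near an end of the stretch take in genes from both sides of that end. The window at VWDE holds ETV1, ISPD and SOSTDC1, so its value draws in part on the stretch itself. Over all parts of the genome outside the stretch, the rest of chromosome 7 included, the running median was at or above 1.5-fold in 294 of 12995 positions (2.26%). Its highest value there was 5.01, on chromosome 4.

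The rest of the short arm differed less. The 70 measured genes towards the tip had a median log2 ratio of 0.15, with 15 at least 1.5-fold higher and 3 lower. The 83 towards the centromere had a median of 0.16, with 19 higher and 7 lower. The 424 measured genes of the long arm had a median of 0.04, with 60 higher and 63 lower, close to the values over all genes.

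**Figure D4:**
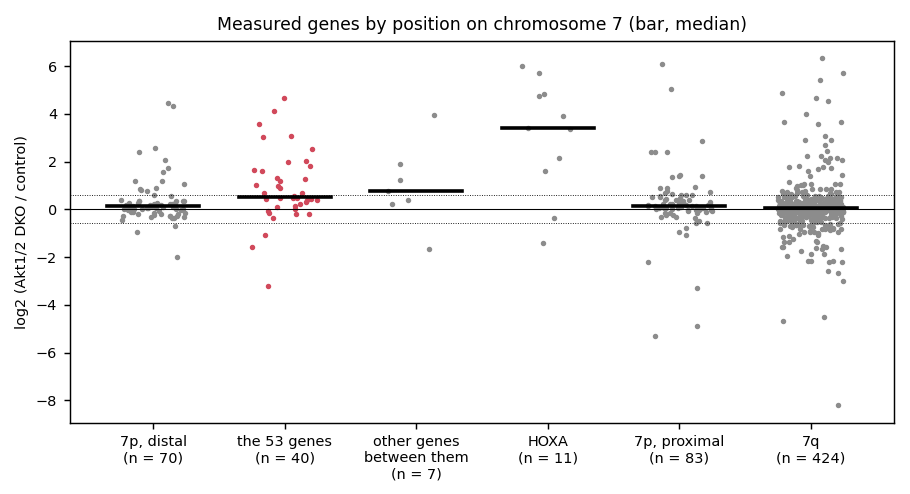
Log2 ratio of Akt1/2 DKO to control for measured genes of chromosome 7 by position, with the median as a bar and dotted lines at 1.5-fold. The medians were 0.15 towards the tip, 0.52 for the 53 genes, 0.76 for other genes between them, 3.42 for HOXA with 3 reads as the floor, 0.16 towards the centromere and 0.04 on 7q.

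In 3 places a gene of the stretch starts close to a neighbour on the other strand, so that both genes share the sequence between their start sites. ANKMY2 and BZW2 start 314 bases apart, and their log2 ratios were 0.42 and 0.50. HNRNPA2B1 and CBX3 overlap at their starts by 368 bases, with ratios of 0.22 and 0.25. FKBP14 and PLEKHA8 start 720 bases apart, with ratios of 0.39 and -0.07. The first 2 pairs differed by 0.08 and 0.03, and the third by 0.46.

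The BZW2 promoter is shown because it reaches into the short stretch between BZW2 and ANKMY2. The promoters of AGR2, OSBPL3 and NUPL2 are shown because these genes had the highest ratios among those with at least 500 reads. That of SCRN1 is shown because it had the lowest ratio among those with at least 500 reads. Each sequence runs from 250 bases before to 50 bases after a RefSeq start site (GRCh38.p14), 5′ to 3′ on the gene's strand, and capitals mark CpG dinucleotides. BZW2 is on the plus strand at chr7:16645931-16646230, AGR2 on the minus strand at chr7:16804950-16805249 and NUPL2 on the plus strand at chr7:23181798-23182097. The AGR2 start used by RefSeq lies well inside the longer GENCODE gene (chr7:16791811-16833433). OSBPL3 is on the minus strand at chr7:24980129-24980428 and SCRN1 on the minus strand at chr7:29989752-29990051.
BZW2: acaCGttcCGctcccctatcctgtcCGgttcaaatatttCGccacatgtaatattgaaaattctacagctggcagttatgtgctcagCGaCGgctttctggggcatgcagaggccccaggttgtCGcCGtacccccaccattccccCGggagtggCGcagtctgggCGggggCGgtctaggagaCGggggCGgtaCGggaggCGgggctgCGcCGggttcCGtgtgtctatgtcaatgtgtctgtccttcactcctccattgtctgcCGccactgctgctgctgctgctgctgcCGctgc
AGR2: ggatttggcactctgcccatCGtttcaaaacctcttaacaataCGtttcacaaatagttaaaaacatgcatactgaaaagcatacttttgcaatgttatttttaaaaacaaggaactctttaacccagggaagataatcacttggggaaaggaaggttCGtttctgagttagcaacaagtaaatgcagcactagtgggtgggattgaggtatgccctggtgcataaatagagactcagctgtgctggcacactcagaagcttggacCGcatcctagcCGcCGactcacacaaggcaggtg
NUPL2: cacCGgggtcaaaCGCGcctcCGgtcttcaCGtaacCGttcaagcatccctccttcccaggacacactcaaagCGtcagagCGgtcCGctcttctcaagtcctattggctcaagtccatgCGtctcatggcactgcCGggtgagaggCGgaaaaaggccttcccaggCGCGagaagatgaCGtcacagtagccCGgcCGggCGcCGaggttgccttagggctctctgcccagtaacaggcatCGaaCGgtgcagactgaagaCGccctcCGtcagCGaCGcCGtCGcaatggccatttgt
OSBPL3: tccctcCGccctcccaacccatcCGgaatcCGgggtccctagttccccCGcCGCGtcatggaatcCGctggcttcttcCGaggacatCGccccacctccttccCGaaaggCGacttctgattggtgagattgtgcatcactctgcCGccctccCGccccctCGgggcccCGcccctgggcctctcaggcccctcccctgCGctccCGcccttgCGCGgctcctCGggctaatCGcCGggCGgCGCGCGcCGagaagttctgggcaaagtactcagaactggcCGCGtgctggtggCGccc
SCRN1: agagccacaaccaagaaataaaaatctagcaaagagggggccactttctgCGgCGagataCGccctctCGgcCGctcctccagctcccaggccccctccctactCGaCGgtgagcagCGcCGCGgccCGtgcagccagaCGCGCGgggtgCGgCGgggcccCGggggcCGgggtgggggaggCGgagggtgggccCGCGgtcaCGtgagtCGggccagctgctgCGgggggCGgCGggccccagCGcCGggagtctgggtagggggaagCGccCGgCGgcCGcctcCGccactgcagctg

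The AGR2 window holds 6 CpGs, while those of BZW2, NUPL2, OSBPL3 and SCRN1 hold 21, 27, 30 and 33. AGR2, NUPL2, OSBPL3 and SCRN1 were picked on their ratios, and whether CpG content goes with direction was not tested. The RefSeq promoter table used here held a window for 47 of the 53 genes, 5 of them under a newer symbol. In 35 of the 47 (74.5%), the ratio of observed to expected CpGs was at least 0.6, against 48.9% of 35116 windows of the same length over all genes. These shares differ in unit: each of the 47 genes has 1 chosen window, while the 35116 can hold several start sites of a gene. The choice of window may thus add to the gap, and the motif shares below have the same limit. For 10 of the 47, OSBPL3 among them, other start sites of the same gene lay on the other side of 0.6.

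Among measured genes, 13 of 29 with a window at or above 0.6 were at least 1.5-fold higher, with a median log2 ratio of 0.50. Of the 5 below 0.6, which were AGR2, GPNMB, RAPGEF5, SKAP2 and TAX1BP1, 4 were, with a median of 0.90. Over all measured genes 15.9% were, and a share for each kind of window was not computed over them. Nothing is read from these counts, since the genes were picked from this contrast. The motif GTAAACA, bound by FOXO proteins, which Akt phosphorylates, was found on neither strand in any of the 47 windows, and 3.42% of all windows hold it. The motif GCGTG, the core of the AHR site, was in 17 of the 47 (36.2%), against 36.5% of all windows, and in 1 copy in that of AHR itself. A match of letters is no evidence of binding, and motifs outside these windows were not searched.

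On the authors' FPKM scale, which divides by transcript length so that genes can be compared, TOMM7 had the highest level of the 53 in both libraries, at 153.23 in control and 208.5 in Akt1/2 DKO. CBX3 (139.78 and 172.39), CYCS (135.68 and 189.66) and BZW2 (103.38 and 151.2) followed in control. AGR2 went from 10.53 to 87.29 FPKM, NUPL2 from 19.81 to 94.67 and OSBPL3 from 0.95 to 13.53. In Akt1/2 DKO, AGR2 and NUPL2 thus had levels above that of TAX1BP1 (75.43), which had been higher than both in control (52.86).

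The FPKM and the scaled reads gave the same direction for 38 of the 40 measured genes, the other 2 being SNX10 and PLEKHA8. For 7 genes the log2 ratios, with 0.1 added to each FPKM, differed by over 0.3. Of these, 6 had under 100 reads and an FPKM of 0.28 or less in at least 1 library. At such levels the added 0.1 and the floor of 3 reads weigh on the ratio, so the gap need not lie in the authors' values. The exception was ETV1, with a log2 ratio of 1.62 in reads and 1.21 in FPKM, whose FPKM went from 4.21 to 9.86. Which transcripts of ETV1 were read is not given in the table.

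AHR also received fractional reads, 120.08 in control and 416.1 in Akt1/2 DKO, together with RP11-507K12.1. Their sums were 155 and 559, and the log2 ratio of the sums was 1.70, close to the 1.64 of AHR alone. Other genes of the stretch overlap on opposite strands: TAX1BP1 with JAZF1 by 13992 bases, CHN2 with CPVL by 48883 and NFE2L3 with HNRNPA2B1 by 14069. Whether the counting used strand is not given in the sources used here. Strand did not keep MALSU1 and IGF2BP3 apart, since reads were divided between them although they lie on opposite strands. The partners named here had whole counts, so no divided reads are seen for them, but their reads may still not be separable.

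Genes elsewhere in the genome that act with these 53 were looked up as lists. Of 7 AHR pathway genes, 1 was at least 1.5-fold higher and 0 lower, where 15.9% and 15.0% of all measured genes were. It was CYP1A1, a classical AHR target, with 87 reads in control and 510 in Akt1/2 DKO (5.29-fold, 4.20 to 6.72). The other targets CYP1B1 (54 and 45 reads), TIPARP (214 and 296), AHRR (61 and 97) and NQO1 (651 and 843) were within 1.5-fold, as was the partner ARNT (711 and 748).

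Of 6 genes of the IL6 receptor pathway, 0 were higher and 1 was lower, SOCS3 with 9 and 3 reads, whose interval (log2 -4.26 to 0.27) included no difference. None of the 6 partners of cytochrome c and gasdermin E in apoptosis, APAF1, CASP9, DIABLO and XIAP among them, passed 1.5-fold, with log2 ratios from -0.34 to 0.26. On the FPKM scale XIAP went from 13.8 to 7.51 (log2 -0.87, against 0.19 in reads) and APAF1 from 5.03 to 6.71 (0.41, against -0.16), so both had the other direction. ETV4 (log2 -0.19) and ETV5 (-0.03), the closest relatives of ETV1, were within 1.5-fold. CBX1 (0.17) and CBX5 (0.15), the relatives of CBX3, and MET (0.05), a target of MACC1, were too, although the FPKM of MET went from 1.33 to 0.79 (log2 -0.68). IGF2BP1, a relative of IGF2BP3, had 5 reads in control and 122 in Akt1/2 DKO (22.0-fold, 9.18 to 69.0), while IGF2BP2 had 218 and 227.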

How the data were processed

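RNA was sequenced from 1 library of Akt1/2 DKO and 1 of control CWR22rv1 cells. For both libraries the authors deposited estimated counts per gene, without normalization. They also deposited FPKM values, which divide by transcript length and depth. The submitters' processing notes name fastp 0.20.0, TopHat, Cufflinks, edgeR and the build GRCh38.p10, without roles, and which tool counted reads is not given in the sources used here. The authors' own fold changes, p-values, ontology counts and correlation were not used.

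The 53 genes, the gene lists and the roles were chosen with earlier results of these data known. The genes named are the 53, AKT1, AKT2, the other genes of the stretch, the 5 measured genes at each end, and the lists, of which some genes are not reported here. The estimated counts were rounded, and the 13318 genes that reached 10 reads over both libraries were kept. With TMM factors from edgeR 4.0.16 (R 4.3.3), the effective size of the Akt1/2 DKO library was 1.11 times that of control. A library under 3 reads, which are 0.306 CPM in control and 0.276 in Akt1/2 DKO, was set to 3 for calls, and medians used a prior count of 0.5. Ratios from 1 to 3 reads are given as read. Intervals are exact (Clopper-Pearson, 95%, scipy 1.17.1) and cover counting error only. No p-value is given, since there are no replicates. Positions come from GENCODE release 29 (19571 of 19607 genes matched) and promoters from RefSeq. The TMM scaling and the 1.5-fold call were tested on simulated counts that held counting error alone. Alternatives were DESeq2 1.42.0 size factors, other scalings, read filters, a 2-fold limit, prior counts, windows and FPKM. For all log2 ratios of FPKM, 0.1 was added to each value.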

Additional observations from a re-analysis of the deposited data

How the results depend on the processing

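Scaling by total counts, DESeq2 size factors, upper quartiles, or TMM without chromosomes 3 and 7 kept the counts of the 53 genes within 1.5 times and the medians within 0.1 of the values reported. For single genes, 237 of 240 values under 6 alternatives lay within their interval. With the authors' FPKM, and 0.1 added to each value, the log2 ratio was 1.21 for ETV1, -1.22 for DNAH11 and 2.25 for NUPL2. DNAH11 had an FPKM of 0.18 in control and 0.02 in Akt1/2 DKO, so the added 0.1 made its ratio smaller in size. For ETV1 and NUPL2 the cause was not tested. With at least 50 reads, 1 gene was at least 1.5-fold lower, in place of 3, since DNAH11 and STK31 were no longer measured, and the lowest running median was 0.45. The median of the other genes in the stretch was 0.58 with any read and also with at least 50 reads. The median of the running median was 0.90 with any read. The lowest running median in the stretch was 0.10 with windows of 7 genes and 0.41 with windows of 21. Without the HOXA genes, an alternative chosen after seeing the data, the median was 0.54 and the lowest value 0.41. No paired analysis was possible because there is only 1 library per condition. Depth limits the 13 genes under 10 reads: the interval included no difference for 12 of them, and for CHN2 (0 and 7 reads) it lay above no difference.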
